A study of Homo sapiens and Mus musculus with 55 samples.

Results

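The 40 genes described here encode the transporters and enzymes that take glucose to lactate, together with target genes and regulators of the hypoxia-inducible factors (HIF). They were chosen by gene symbol and not by any measured value, out of 24465 to 35377 genes listed per table. Phrases such as "both glucose transporters" cover only the genes among these 40, and not whole gene families. All 40 were listed and tested in the 8 tables of human cells. In the mouse tables the symbols are those of the orthologs, with Car9 and Car12 for CA9 and CA12 and Gpi1 for GPI. In 4T1 cells 37 of 40 were tested, since Slc2a3, Slc16a3 and Epas1 lay under the minimum table mean of 10. In Py230 cells 36 were tested, with Pfkfb4, Ankrd37 and Egln3 under that minimum and Slc2a3 not analysed.

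The series holds 55 RNA-seq libraries in 10 tables, and its title concerns the repression of STING by MYC. The human lines MDA-MB-436 and SUM159PT derive from triple-negative breast cancers, and the mouse lines 4T1 and Py230 from mammary tumours. Cells labelled Tax-R, a label that the sources used here do not spell out, were set against parental cells of the same line, with no treatment labelled in either group. In a second experiment Tax-R cells of both human lines, and 4T1 cells, received MYC siRNA-1 (siMYC1), MYC siRNA-2 (siMYC2) or a control siRNA (siC), so every human group of that experiment is Tax-R. In the third, cells of both human lines with a STING sgRNA, in groups labelled C1 and C2, were set against mock cells. In the fourth, cells that all carried the STING sgRNA received either a STING or a GFP open reading frame (ORF). In the fifth, Py230 cells that all carried a Sting1 shRNA were given doxycycline or vehicle. Each human group had 2 libraries and each mouse group had 3. The labels give no times, doses, oxygen tension or medium, and do not say whether C1 and C2 are clones.

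Glycolysis splits glucose into pyruvate and yields ATP without oxygen. When oxygen is short, prolyl hydroxylases such as EGLN1 and EGLN3 no longer mark the HIF alpha subunits HIF1A and EPAS1 for destruction by the VHL ubiquitin ligase. The stabilised subunits pair with ARNT and bind hypoxia response elements near genes for glucose uptake, glycolysis, lactate and acid export, angiogenesis and mitophagy. MYC binds E-box motifs near many of the same glycolytic genes. HIF activity is set mostly at the level of the HIF1A protein, which RNA does not show.

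Values are normalized counts, that is, gene read counts which the authors divided by 1 size factor per library within each table. Changes are log2 differences on the log2(value + 1) scale, given as the change ± SE. A gene is said to be higher or lower, or to rise or fall, only where limma's adjusted p was below 0.05. Shares of all genes are given for the main limma fit, for single reagents and for differences between reagents. Counts of members by other tools or settings stand without that share. A drop in such a count may therefore not be particular to the members. Recovered depth was 5663610 to 13191675 reads per library. The labels do not say whether replicates came from separate cultures, and p-values therefore measure only the spread between libraries. In bulk RNA, fewer cells of one type and less RNA per cell cannot be told apart. STING1, listed as TMEM173, checked the labels: its log2 change was -1.03 and -1.71 in Tax-R cells of MDA-MB-436 and SUM159PT, -1.85 and -1.28 with the sgRNA, 4.47 and 4.37 with the STING ORF, and -4.14 in Py230 with doxycycline. With MYC siRNA it was higher, by 2.003 and 0.92 in Tax-R cells of MDA-MB-436 and SUM159PT and by 0.40 in 4T1. MYC, by contrast, moved by -0.09 ± 0.03 (limma adjusted p = 0.0144) in Tax-R cells of MDA-MB-436 given MYC siRNA, by -0.87 ± 0.04 in those of SUM159PT (limma adjusted p = 3.97e-23) and by -0.09 ± 0.04 in 4T1 (limma adjusted p = 0.0683). The call in MDA-MB-436 was lost without siC replicate 1 (-0.08, limma adjusted p = 0.124), and in 4T1 MYC was called without siC replicate 1 (-0.12, limma adjusted p = 0.046) or siMYC1 replicate 2 (-0.11, limma adjusted p = 0.038). The MYC transcript was hardly lower in the MDA-MB-436 libraries labelled siMYC, and it did not pass the test in those of 4T1. Of the defining markers, ESR1 and EPCAM stayed below 25 normalized counts in every human library, and VIM was above 1000. The 2 receptor markers analysed in human cells, ESR1 included, summed to 368 to 1208, so most of that sum came from the other receptor. Whether that level is high or low for a receptor was not tested. That sum differed between groups in several comparisons. 4T1 and Py230 had Epcam above 1600 and Esr1 above 60 in every library, and PGR was analysed only in Py230. The 2 Tax-R tables stood apart from the other 6 human tables in composition. In them, 20 glycolytic members took 0.369 to 0.398% of reads, against 1.31 to 2.03% in the other human tables. GAPDH took 0.0143 to 0.0182% of reads there, against 0.207 to 0.324% elsewhere, and PGAM1 0.0466 to 0.0512%, against 0.0291 to 0.0789% elsewhere. The cause was not tested. Levels are therefore compared only within a table. Several members, GAPDH, PGK1, LDHA, ENO1 and PGAM1 among them, have processed pseudogenes or close copies, and no source used here gives how shared reads were counted.

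Promoters of 5 members are shown because 4 of them, CA9, ALDOC, PFKFB4 and ANGPTL4, had the widest ranges of log2 change over the 8 human comparisons among members with a single listed promoter, and GAPDH had the narrowest range of all 40. Those ranges were 6.98 for CA9, 4.40 for ALDOC, 3.50 for PFKFB4, 3.22 for ANGPTL4 and 0.34 for GAPDH. The sequences are RefSeq promoters on GRCh38.p14, from 250 bases before to 50 bases after the annotated start, written 5′ to 3′ on the gene's strand. Capitals mark the hypoxia response element cores ACGTG and GCGTG, searched on both strands (reverse complements CACGT and CACGC), and the E-box CACGTG, which contains ACGTG. They lie at chr9:35673678-35673977 on the plus strand (CA9), chr17:28576846-28577145 on the minus strand (ALDOC), chr3:48556754-48557053 on the minus strand (PFKFB4), chr19:8363905-8364204 on the plus strand (ANGPTL4) and chr12:6535014-6535313 on the plus strand (GAPDH).
CA9: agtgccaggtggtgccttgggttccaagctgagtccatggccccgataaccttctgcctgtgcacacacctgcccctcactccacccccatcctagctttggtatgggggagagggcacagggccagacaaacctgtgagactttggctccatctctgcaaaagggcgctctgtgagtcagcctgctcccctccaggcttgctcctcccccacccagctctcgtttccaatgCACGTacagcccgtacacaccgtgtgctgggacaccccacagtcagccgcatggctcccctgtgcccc
ALDOC: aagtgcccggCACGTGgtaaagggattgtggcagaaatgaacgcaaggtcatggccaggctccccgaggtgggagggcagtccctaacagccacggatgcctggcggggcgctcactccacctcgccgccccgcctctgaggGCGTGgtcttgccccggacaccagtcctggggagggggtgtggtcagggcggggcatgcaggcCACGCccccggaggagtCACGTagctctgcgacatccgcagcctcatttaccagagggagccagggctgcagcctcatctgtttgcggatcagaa
PFKFB4: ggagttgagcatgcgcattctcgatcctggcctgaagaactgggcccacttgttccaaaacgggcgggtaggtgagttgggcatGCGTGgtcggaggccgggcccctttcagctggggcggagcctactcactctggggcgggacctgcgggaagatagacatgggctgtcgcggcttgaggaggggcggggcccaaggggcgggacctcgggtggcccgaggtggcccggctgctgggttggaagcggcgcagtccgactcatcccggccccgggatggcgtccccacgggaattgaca
ANGPTL4: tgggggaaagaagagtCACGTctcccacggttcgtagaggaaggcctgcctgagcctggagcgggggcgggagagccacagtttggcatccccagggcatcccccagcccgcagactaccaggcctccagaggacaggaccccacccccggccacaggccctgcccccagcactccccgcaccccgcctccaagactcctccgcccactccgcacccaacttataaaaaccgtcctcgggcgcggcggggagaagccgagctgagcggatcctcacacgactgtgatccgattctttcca
GAPDH: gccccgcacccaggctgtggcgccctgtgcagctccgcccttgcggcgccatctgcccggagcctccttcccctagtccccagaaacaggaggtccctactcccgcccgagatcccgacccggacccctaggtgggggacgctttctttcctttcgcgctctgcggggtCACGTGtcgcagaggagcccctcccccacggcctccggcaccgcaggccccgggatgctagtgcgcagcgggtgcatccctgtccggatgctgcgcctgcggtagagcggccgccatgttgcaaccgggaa
CA9 held 1 ACGTG core on the reverse strand, whose first base lay 18 bases upstream of the start. ALDOC held the most, with an E-box at 240 bases, GCGTG cores at 108 and 45 bases and an ACGTG core at 28 bases upstream. PFKFB4 held 1 GCGTG core at 166 bases and ANGPTL4 held 1 ACGTG core at 234 bases upstream. GAPDH, the member with the narrowest range, held an E-box at 81 bases upstream. Of 40 members, 36 matched a promoter, with 64 promoters in all, and SLC2A3, VEGFA, NDRG1 and BNIP3L did not match. ACGTG stood in 39.1% of the 64 member promoters and in 21.4% of all 35116 promoters, GCGTG in 42.2% against 36.5%, and CACGTG in 12.5% against 7.26%. A match is a description of the letters and not a measured binding site.

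Over the 10 comparisons, 393 tests of members were possible, of which 145 came out higher and 130 lower. Every one of the 40 members was called in at least 1 comparison, and 37 of 40 were called in both directions in different comparisons. Of all genes tested in a comparison, 9.2% to 35% were higher and 11.9% to 35.1% lower. The share of all genes called at least once, or in both directions, was not counted. HIF1A was higher in 5 comparisons and lower in 0, over a range of -0.10 to 0.94, LDHB was lower in 4 and higher in 0, and ANKRD37 was lower in 3 and higher in 0. GAPDH moved least among the human comparisons, and CA9 moved most, between -2.98 with STING sgRNA and 4.00 with the STING ORF, both in SUM159PT. The map of log2 changes shows these patterns gene by gene, and the plot of shares sets the members beside all genes tested.

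**Figure D1:**
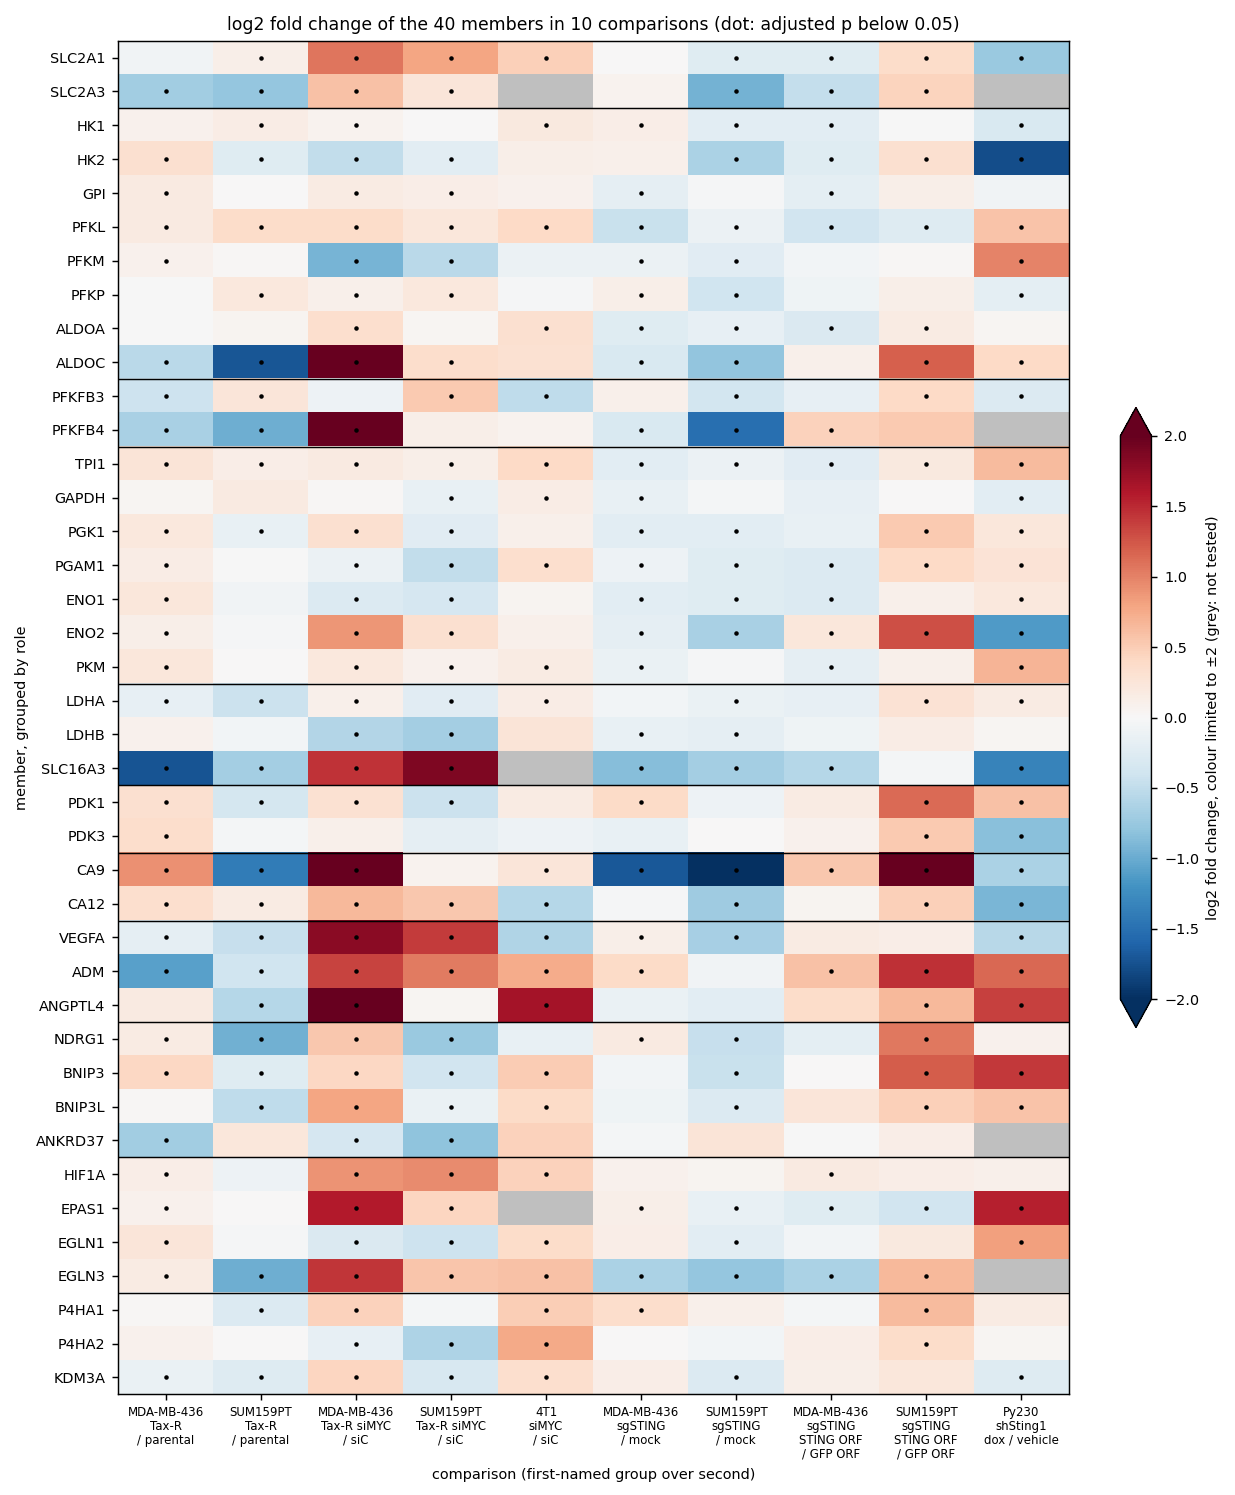
Log2 change of the 40 members (rows, grouped by role) in the 10 comparisons (columns), with red for higher and blue for lower, a dot where limma's adjusted p was below 0.05 and grey where a gene was not tested. The column for STING sgRNA in SUM159PT holds 29 dots, all of them on blue, and that for the STING ORF in the same line holds 23 on red and 2 on blue.

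The first comparison asked how Tax-R cells differed from parental cells. Tax-R cells of MDA-MB-436 had more transcript of 6 of the 7 listed enzymes of lower glycolysis and of the pyruvate dehydrogenase kinases PDK1 and PDK3. They had less of the lactate exporter SLC16A3, the glucose transporter SLC2A3 and the bifunctional 6-phosphofructo-2-kinases PFKFB3 and PFKFB4. PDK2 and PFKFB2, relatives of these kinases outside the 40, were lower as well (-0.63 and -0.88). Of 40 members 20 were higher and 10 lower, while 27.7% of all genes tested were higher and 26.9% lower. The members' median change was 0.09, and that of all genes 0.012. A change of at least 2-fold was called for 2 members lower, SLC16A3 and ADM (9.18% of all genes), and for 0 higher (2.83% of all genes). DESeq2 called 13 higher and 8 lower.

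SLC16A3 encodes MCT4, which carries lactate and protons out of glycolytic cells. It had 448 and 431 normalized counts in Tax-R libraries of MDA-MB-436, against 1475 and 1437 in parental libraries. The Tax-R values lay far below the parental ones, a change of -1.73 ± 0.04 (limma adjusted p = 1.91e-10). ADM, which encodes the vasodilator peptide adrenomedullin, had 170.2 and 184 in Tax-R and 364 and 392 in parental libraries. The groups did not overlap, and ADM was lower in Tax-R at -1.09 ± 0.07 (limma adjusted p = 3.17e-07). SLC2A3, the high-affinity glucose transporter GLUT3, had 1395 and 1420.0 in Tax-R and 2238 and 2314 in parental libraries, which was also lower without overlap (-0.69 ± 0.04, limma adjusted p = 3.98e-08). PFKFB4 and PFKFB3 make fructose-2,6-bisphosphate, the main activator of phosphofructokinase. PFKFB4 changed by -0.65 ± 0.06 and PFKFB3 by -0.42 ± 0.04, and ALDOC, the brain-type aldolase, by -0.54 ± 0.09.

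CA9, the cell-surface carbonic anhydrase often used as a marker of hypoxia, went the other way in MDA-MB-436. Its values were 324 and 365 in Tax-R and 171 and 196 in parental libraries. Both Tax-R values exceeded both parental ones (0.91 ± 0.09, limma adjusted p = 5.13e-06). BNIP3, a mitophagy receptor of the outer mitochondrial membrane, had 1383 and 1421 in Tax-R and 1069 and 1046 in parental libraries, and was higher at 0.41 ± 0.04 (limma adjusted p = 3.79e-06). The kinases PDK3 and PDK1, which switch off pyruvate dehydrogenase, rose by 0.35 ± 0.05 and 0.32 ± 0.04, CA12 by 0.34 ± 0.03 and hexokinase HK2 by 0.32 ± 0.04. Among the enzymes of lower glycolysis the 6 increases were small, the largest being that of TPI1 at 0.26. ENO2 was called at 0.12, but not without parental replicate 1 (limma adjusted p = 0.062), parental replicate 2 (0.235) or Tax-R replicate 2 (0.33). GAPDH gave 0.05 ± 0.04 (limma adjusted p = 0.346). HIF1A had 2574 and 2563 in Tax-R and 2262 and 2423 in parental libraries (0.13 ± 0.04, limma adjusted p = 0.0133). That call was lost when parental replicate 1 (limma adjusted p = 0.053), Tax-R replicate 1 (0.088) or Tax-R replicate 2 (0.077) was left out. Without Tax-R replicate 2, 12 members in place of 20 were higher. The pair of Tax-R libraries of MDA-MB-436 differed by less than sampling noise over 18264 genes (chi-square per gene 0.85) but by more in 21 of the most abundant (chi-square per gene 20.9), and was kept as 2. Counted as 1 library, it gave 14 higher and 9 lower members, without HIF1A (limma adjusted p = 0.086) and ENO2 (0.106).

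Tax-R cells of SUM159PT had less transcript of all 3 secreted factors, 3 of 4 stress and mitophagy genes and 2 of 3 genes of lactate handling, while 3 of 8 enzymes of upper glycolysis (PFKL, PFKP and HK1) were slightly higher. Of 40 members 7 were higher and 18 lower, beside 23.5% and 22.1% of all genes tested. A change of at least 2-fold was called for 2 members lower, ALDOC and CA9 (7.75% of all genes), and for 0 higher (3.21%). Over all 40 members the median change was -0.06, against 0.0096 over all genes. DESeq2 called 2 members higher, PFKL and PFKP, and 16 lower.

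ALDOC had 127 and 159 normalized counts in Tax-R libraries of SUM159PT, against 478 and 461 in parental libraries. Both Tax-R libraries were far below both parental ones (-1.72 ± 0.11, limma adjusted p = 1.38e-06). CA9 had 104 and 117 in Tax-R and 293 and 293 in parental libraries, a decrease without overlap (-1.40 ± 0.10, limma adjusted p = 2.83e-06). EGLN3, the prolyl hydroxylase that HIF itself induces, had 455 and 475 in Tax-R and 948 and 884 in parental libraries. Here too the groups were apart (-0.98 ± 0.05, limma adjusted p = 6.26e-07). NDRG1, a stress-responsive gene induced by hypoxia and iron depletion, had 703 and 724 in Tax-R and 1478 and 1300.0 in parental libraries (-0.96 ± 0.06, limma adjusted p = 1.46e-06). PFKFB4 changed by -0.98 ± 0.07, SLC2A3 by -0.77 ± 0.04, SLC16A3 by -0.68 ± 0.06, VEGFA, the main angiogenic growth factor, by -0.46 ± 0.04 and LDHA, which reduces pyruvate to lactate, by -0.42 ± 0.04.

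The largest increase in SUM159PT Tax-R was that of PFKL, the liver-type phosphofructokinase, with 1416 and 1543 in Tax-R and 1118 and 1174 in parental libraries (0.37 ± 0.05, limma adjusted p = 0.000264). PFKFB3 followed with 914 and 949 in Tax-R and 793 and 789 in parental libraries (0.24 ± 0.04, limma adjusted p = 0.00165). PFKP, the platelet-type phosphofructokinase, rose by 0.22 ± 0.04. CA12, HK1 and TPI1 were called at 0.16, 0.15 and 0.14, but each of these calls was lost without Tax-R replicate 1 (limma adjusted p of 0.052, 0.099 and 0.102). HK1 was also lost without Tax-R replicate 2 (0.053) or parental replicate 1 (0.053), and TPI1 without Tax-R replicate 2 (0.064). Without either Tax-R library 4 members were higher in place of 7. HIF1A did not pass the test (-0.10 ± 0.05, limma adjusted p = 0.112), though without parental replicate 1 it was lower at -0.17 with an adjusted p of 0.019.

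The leukocyte marker PTPRC moved with both Tax-R contrasts. It had 242 and 376 in Tax-R and 1982 and 2113 in parental libraries of MDA-MB-436, and 6.14 and 3.96 in Tax-R and 518 and 548 in parental libraries of SUM159PT. The sum over the leukocyte markers PTPRC, CD3E, CD68 and LYZ was 249 to 379 in Tax-R and 1987 to 2115 in parental MDA-MB-436 libraries, and 5.94 to 7.16 in Tax-R and 521 to 550.4 in parental SUM159PT libraries, where CD3E was not analysed. CD68, LYZ and CD3E were at or near 0 in these libraries. The summed epithelial markers (EPCAM, KRT8, KRT18, CDH1) were 1946 to 2062 in Tax-R and 2816 to 2862 in parental MDA-MB-436 libraries, and 1991 to 2037 in Tax-R and 2943 to 2983 in parental SUM159PT libraries. The endothelial markers PECAM1 and CDH5 summed to 142 to 170.3 in Tax-R and 219.7 to 243 in parental MDA-MB-436 libraries, and 84.9 to 92.1 in Tax-R and 199 to 202 in parental SUM159PT libraries. The fibroblast and pericyte markers PDGFRB and DCN summed to 104 to 116 in Tax-R and 352 to 354 in parental SUM159PT libraries, and overlapped between the groups of MDA-MB-436. In MDA-MB-436 the mesenchymal markers VIM and CD44 were at 4271 to 4387 in Tax-R and 5109.7 to 5249.9 in parental libraries. The part of these markers in the members' changes was not tested.

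The second experiment asked what MYC siRNA did in Tax-R cells. In MDA-MB-436 Tax-R, both MYC siRNAs came with higher transcripts of both glucose transporters, both carbonic anhydrases, all 3 secreted factors and both HIF alpha subunits, and with lower PFKM, LDHB, HK2 and ENO1. Of 40 members 29 were higher and 8 lower, against 34% and 33.7% of all genes tested. The members' median change was 0.35, and that of all genes -0.0087. By the stricter rule of at least 2-fold, 10 members were higher, where 9.73% of all genes were, and 0 were lower, where 4.11% were.

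ALDOC had 145 and 158 normalized counts in siMYC1 and 132 and 150.2 in siMYC2 libraries of MDA-MB-436 Tax-R, against 23.4 and 20.4 in siC libraries. All 4 siMYC libraries lay far above the controls (2.68 ± 0.14, limma adjusted p = 2.57e-16). ANGPTL4, a secreted inhibitor of lipoprotein lipase, had 621 and 628 in siMYC1 and 560.5 and 539.6 in siMYC2 libraries, against 99.1 and 87.4 in siC libraries (2.64 ± 0.07, limma adjusted p = 8.96e-23). CA9 had 414 and 437 in siMYC1 and 466 and 451 in siMYC2, against 102 and 94.2 in siC. It too was higher without overlap (2.16 ± 0.07, limma adjusted p = 3.64e-20). VEGFA had 2617 and 2492 in siMYC1 and 2598 and 2683 in siMYC2, against 772 and 713 in siC, so every siMYC library exceeded 2400 and no control reached 800 (1.81 ± 0.04, limma adjusted p = 2.52e-25). PFKFB4 rose by 1.99 ± 0.11, SLC16A3 by 1.44 ± 0.05, EGLN3 by 1.43 ± 0.07, ADM by 1.36 ± 0.12 and the basal glucose transporter SLC2A1 by 1.07 ± 0.03.

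Both HIF alpha subunits rose in the siMYC libraries. EPAS1, which encodes HIF-2 alpha, had 3912 and 4127 in siMYC1 and 4036 and 3794 in siMYC2, against 1340.0 and 1307 in siC (1.58 ± 0.03, limma adjusted p = 1.04e-25). HIF1A had 5823 and 5848 in siMYC1 and 5926 and 5990.3 in siMYC2, against 3137 and 3208 in siC, and was higher in every siMYC library (0.89 ± 0.02, limma adjusted p = 6.25e-23). EGLN1, the main HIF prolyl hydroxylase, was lower (-0.30 ± 0.05).

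Among the 8 decreases, PFKM, the muscle-type phosphofructokinase, had 684 and 665 in siMYC1 and 607 and 607 in siMYC2, against 1221 and 1221 in siC. The siMYC libraries were all lower (-0.93 ± 0.05, limma adjusted p = 1.08e-16). LDHB, the lactate dehydrogenase subunit that favours lactate oxidation, had 2400.4 and 2372 in siMYC1 and 2346 and 2406 in siMYC2, against 3567 and 3586 in siC (-0.59 ± 0.03, limma adjusted p = 1.08e-16). HK2 changed by -0.49 ± 0.05 and ENO1, the enolase found in most tissues, by -0.28 ± 0.02. ANKRD37, a small ankyrin-repeat protein gene induced by HIF, was called at -0.34 ± 0.15 (limma adjusted p = 0.0426), but without siC replicate 1 it was at -0.11 with an adjusted p of 0.618. It was also above the threshold without siMYC1 replicate 1 (0.092), siMYC1 replicate 2 (0.053) or siMYC2 replicate 1 (0.1). GAPDH gave 0.03 ± 0.02 (limma adjusted p = 0.139), and was called at 0.05 without siC replicate 1 (0.042). The summed fibroblast and pericyte markers PDGFRB and DCN were 95.7 to 109 in siMYC and 9.59 to 11.6 in siC libraries of MDA-MB-436 Tax-R, and 561 to 625 in siMYC and 176 to 185 in siC libraries of SUM159PT Tax-R. Endothelial markers summed to 26.6 to 40.2 in siMYC and 12.8 to 15.5 in siC libraries of MDA-MB-436 Tax-R, and 124 to 151 in siMYC and 48.1 to 56.9 in siC libraries of SUM159PT Tax-R. Epithelial markers (EPCAM, KRT8, KRT18) summed to 4739 to 4877 in siMYC and 3972 to 3995 in siC libraries of MDA-MB-436 Tax-R, and 5698 to 5978 in siMYC and 4573 to 4583 in siC libraries of SUM159PT Tax-R. The receptor markers summed to 1037 to 1095 in siMYC and 585 to 593 in siC libraries of MDA-MB-436 Tax-R. In SUM159PT Tax-R they summed to 1113 to 1165 in siMYC and 633 to 695 in siC libraries. Their part in the members' changes was not tested.

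In SUM159PT Tax-R, MYC siRNA raised the lactate exporter, VEGFA, ADM and HIF1A but lowered the 4 stress and mitophagy genes and 4 of 7 enzymes of lower glycolysis. Of 40 members 17 were higher and 16 lower, close to the 35% and 34.5% of all genes tested. Their median change was 0.04, against -0.0054 for all genes. Increases of at least 2-fold were called for 3 members, SLC16A3, VEGFA and ADM (10.3% of all genes), and decreases of that size for 0 (8.5%).

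SLC16A3 had 2435 and 2233 normalized counts in siMYC1 and 2376 and 2353 in siMYC2 libraries of SUM159PT Tax-R, against 658 and 629 in siC libraries. Every siMYC library was above 2200 and both controls below 700 (1.87 ± 0.05, limma adjusted p = 1.14e-35). VEGFA had 4335 and 4205 in siMYC1 and 4339 and 4203 in siMYC2, against 1674 and 1579 in siC (1.39 ± 0.04, limma adjusted p = 9.98e-34). ADM followed at 1.03 ± 0.08. HIF1A had 4990.4 and 4889 in siMYC1 and 4939 and 4932 in siMYC2, against 2516 and 2617 in siC, again higher in all siMYC libraries (0.94 ± 0.04, limma adjusted p = 3.15e-28). SLC2A1 rose by 0.79 ± 0.04 and EGLN3 by 0.56 ± 0.05. CA9 and ANGPTL4 did not pass here, at 0.07 ± 0.05 (limma adjusted p = 0.228) and 0.03 ± 0.06 (limma adjusted p = 0.616), and their siMYC and siC libraries overlapped. Without siC replicate 1, CA9 was called at 0.14 (0.014).

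All 4 stress and mitophagy genes fell with MYC siRNA in SUM159PT Tax-R. NDRG1 had 4584 and 4418 in siMYC1 and 4415 and 4259 in siMYC2, against 7524 and 7204 in siC, with no overlap (-0.74 ± 0.03, limma adjusted p = 1.56e-24). ANKRD37 changed by -0.80 ± 0.13, BNIP3 by -0.39 ± 0.04 and BNIP3L, a paralog of BNIP3 and also a mitophagy receptor, by -0.13 ± 0.05. The call of BNIP3L was lost without siC replicate 2 (limma adjusted p = 0.109) or siMYC2 replicate 2 (0.09). LDHB had 2109.7 and 2191 in siMYC1 and 2180.0 and 2035 in siMYC2, against 3368 and 3481 in siC (-0.69 ± 0.04, limma adjusted p = 1.62e-20). P4HA2, a collagen prolyl 4-hydroxylase subunit, changed by -0.61 ± 0.05 and PFKM by -0.54 ± 0.05. In lower glycolysis PGAM1 changed by -0.49 ± 0.04, ENO1 by -0.33 ± 0.03, PGK1 by -0.23 ± 0.03 and GAPDH by -0.14 ± 0.03, while ENO2 and TPI1 were higher at 0.32 and 0.12. PKM was called at 0.08, but not without siMYC1 replicate 1 (0.0501) or siMYC2 replicate 1 (0.0599), and with quantile normalization it was called in the opposite direction, at -0.30.

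In mouse 4T1 cells most of the changes with MYC siRNA that passed the test were increases. Of 37 members tested, 20 were higher and 3 lower, where 24.7% and 21.5% of all genes tested were. Angptl4 was the 1 member higher by at least 2-fold (1.1% of all genes), and 0 were lower by that much (0.54%). The members' median change was 0.24, and that of all genes -0.0048. All 3 tested HIF and prolyl hydroxylase genes (Hif1a, Egln1, Egln3) and all 3 collagen hydroxylase and demethylase genes (P4ha1, P4ha2, Kdm3a) were higher.

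P4ha2 had 198, 179.7 and 177 normalized counts in siMYC1 and 162, 166 and 165 in siMYC2 libraries of 4T1, against 142, 80.0 and 96.1 in siC libraries, where the first siC library stood closest to the siMYC ones (0.75 ± 0.12, limma adjusted p = 9.31e-06). Adm had 80.2, 71.1 and 77.6 in siMYC1 and 66.4, 64.6 and 59.7 in siMYC2, against 66.4, 36.1 and 28.9 in siC. Adm passed the test although 1 siC library lay within the siMYC range (0.74 ± 0.17, limma adjusted p = 0.0011). Angptl4, a low transcript in 4T1, had 14.4 to 15.8 in siMYC1 and 12.9 to 19.7 in siMYC2, against 2.69, 3.44 and 7.23 in siC (1.66 ± 0.30, limma adjusted p = 4.83e-05). Egln3 rose by 0.59 ± 0.08, P4ha1 by 0.49 ± 0.06, Bnip3 by 0.51 ± 0.10 and Slc2a1 by 0.48 ± 0.06. Hif1a had 1677, 1587 and 1577 in siMYC1 and 1656, 1613 and 1502 in siMYC2, against 1073, 1225 and 1191 in siC. Every siMYC value exceeded every siC value (0.46 ± 0.05, limma adjusted p = 1.25e-08). The first siC library was the highest of the 3 controls for Adm, P4ha2, Bnip3 and Slc2a1, and without it 27 members in place of 20 were higher.

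Vegfa was lower in 4T1 and higher in both human lines, a difference between lines that was not tested. It had 297, 304 and 333 in siMYC1 and 319, 295 and 287 in siMYC2, against 469, 487 and 436 in siC. All siMYC libraries were below all controls (-0.60 ± 0.06, limma adjusted p = 2.25e-08). Car12 and Pfkfb3 were the other 2 decreases, at -0.58 ± 0.08 (limma adjusted p = 2.28e-06) and -0.51 ± 0.09 (limma adjusted p = 4.41e-05). Mesenchymal and epithelial markers moved with this contrast. The summed mesenchymal markers Vim and Cd44 were at 10911 to 12282 in siMYC and 6395 to 6639 in siC libraries, the 4 epithelial markers (Epcam, Krt8, Krt18, Cdh1) at 20555 to 21706 in siMYC and 16275 to 17368 in siC libraries, and their part in the members' changes was not tested.

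The siMYC1 and siMYC2 groups share their siC libraries, so the changes of siMYC1 and of siMYC2 against siC are not independent. In MDA-MB-436 Tax-R siMYC1 alone gave 29 higher and 7 lower members (32.1% and 32.2% of all genes) and siMYC2 alone 28 and 7 (32.1% and 31.4%). In SUM159PT Tax-R siMYC1 alone gave 17 higher and 16 lower (33.2% and 32.4% of all genes) and siMYC2 alone 17 and 16 (33.1% and 32.6%). In 4T1 siMYC1 alone gave 20 higher and 3 lower (22% and 17.8% of all genes) and siMYC2 alone 18 and 4 (21.7% and 17.9%). The direct difference siMYC2 minus siMYC1 was called for 0 members by limma in MDA-MB-436 Tax-R, with 0 by edgeR and 0 by DESeq2, while 0.195% of all genes differed. At an unadjusted p under 0.05 by limma there were 5 members, beside 1569 of 15399 genes. In SUM159PT Tax-R the difference was called for 0 members by limma, edgeR and DESeq2, and for 0.0% of all genes. At an unadjusted p under 0.05 by limma there were 0 members, beside 600 of 15796 genes. In 4T1 the difference was called for 0 members by all 3 tools, and for 0.0% of all genes. At an unadjusted p under 0.05 by limma there was 1 member, beside 372 of 14081 genes. For VEGFA the difference was 0.05 ± 0.04 in MDA-MB-436 Tax-R (limma adjusted p = 0.753), for SLC16A3 0.02 ± 0.05 in SUM159PT Tax-R (limma adjusted p = 1) and for Hif1a -0.02 ± 0.06 in 4T1 (limma adjusted p = 0.999).

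**Figure D2:**
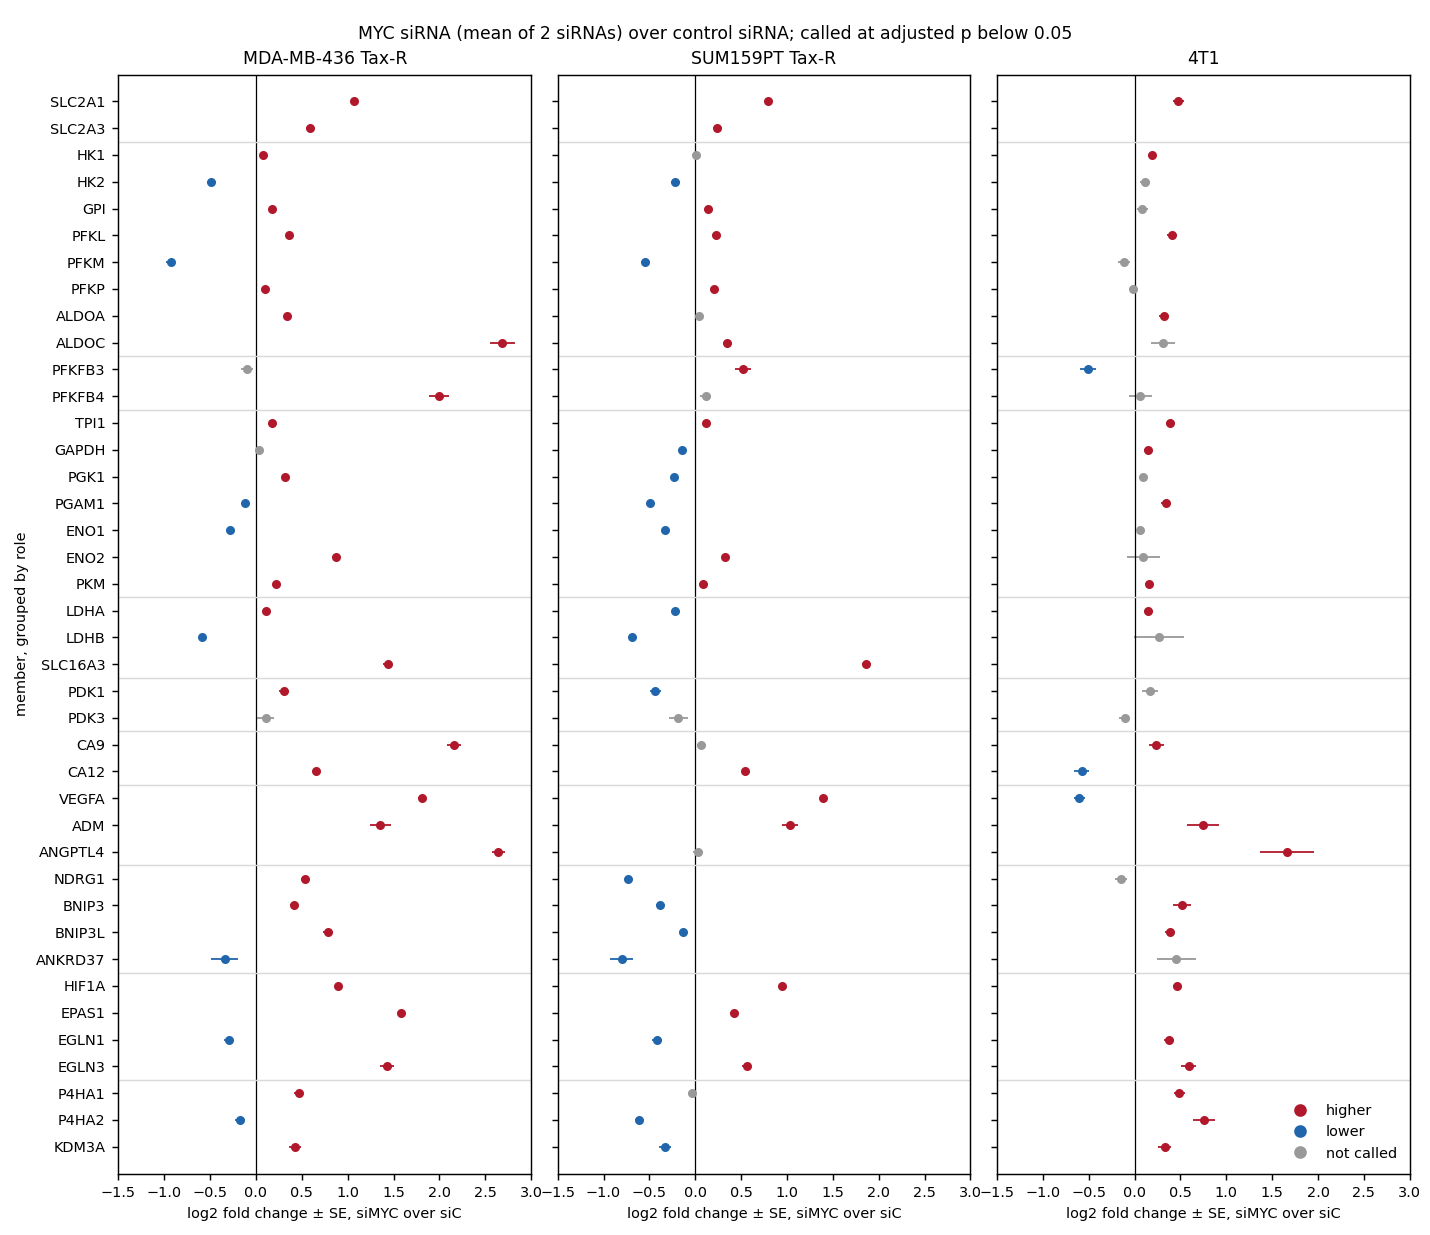
Log2 change with MYC siRNA (mean of siMYC1 and siMYC2 over siC) for each member tested in MDA-MB-436 Tax-R, SUM159PT Tax-R and 4T1, as points with bars of 1 SE. HIF1A is at 0.89, 0.94 and 0.46 in these lines, and VEGFA at 1.81, 1.39 and -0.60.

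The third experiment asked what a STING sgRNA did. In MDA-MB-436, cells with the sgRNA had less transcript of all 7 enzymes of lower glycolysis, of SLC16A3, CA9 and EGLN3, and more of PDK1 and P4HA1. Of 40 members 8 were higher and 17 lower, where 24.8% and 23% of all genes tested were. The median over members was -0.07, against 0.012 over all genes. CA9 was the 1 member lower by at least 2-fold (2.33% of all genes), and 0 were higher by that much (0.889%). DESeq2 called 3 higher. The 2 sgRNA groups share their mock libraries.

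CA9 had 55.1 and 51.1 normalized counts in sgSTING C1 and 41.0 and 49.1 in sgSTING C2 libraries of MDA-MB-436, against 179.6 and 142 in mock libraries. All 4 sgSTING libraries were below 60 and both mock libraries above 140 (-1.69 ± 0.15, limma adjusted p = 1.97e-10). SLC16A3 had 2041 and 1899.9 in C1 and 1711 and 1467 in C2, against 3223 and 3148 in mock, with no overlap (-0.85 ± 0.05, limma adjusted p = 1.99e-15). EGLN3 had 131 and 137 in C1 and 140.0 and 148 in C2, against 232 and 200.3 in mock. The sgSTING values were again lower throughout (-0.63 ± 0.10, limma adjusted p = 7.17e-06). PFKL changed by -0.44 ± 0.05, and the 7 enzymes of lower glycolysis by -0.10 (PGAM1) to -0.21 (PGK1, ENO1 and TPI1), with GAPDH at -0.15 ± 0.02 (limma adjusted p = 6.38e-06). PGAM1 missed the threshold without mock replicate 1 (0.145), mock replicate 2 (0.115) or C2 replicate 2 (0.133). ALDOC and PFKFB4 were called at -0.31 and -0.31, but without mock replicate 1 these were -0.24 and -0.18 with adjusted p of 0.185 and 0.333.

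PDK1 was the member with the largest increase in MDA-MB-436 with STING sgRNA, at 551 and 561 in C1 and 503 and 547 in C2, against 414 and 413 in mock (0.38 ± 0.06, limma adjusted p = 6.6e-06). P4HA1, the other collagen prolyl 4-hydroxylase alpha subunit of the list, had 843 and 884 in C1 and 882 and 915 in C2, against 659 and 719.9 in mock (0.35 ± 0.05, limma adjusted p = 2.26e-06). Both rose without overlap. ADM, NDRG1, HK1 and EPAS1 were called at 0.38, 0.18, 0.14 and 0.12, but without mock replicate 1 their adjusted p was 0.071, 0.317, 0.069 and 0.064, and only 2 members were then higher. EPAS1 also missed the threshold without mock replicate 2 (0.276), C1 replicate 1 (0.109) or C2 replicate 2 (0.058). HIF1A gave 0.08 ± 0.03 (limma adjusted p = 0.0516), and it was called at 0.10 without C1 replicate 2 (0.003) or C2 replicate 1 (0.018).

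In SUM159PT, the STING sgRNA came with lower transcripts of most of the pathway: both glucose transporters, 7 of 8 enzymes of upper glycolysis, both 6-phosphofructo-2-kinases, 5 of 7 enzymes of lower glycolysis, all 3 genes of lactate handling and both carbonic anhydrases. Of these, 3 of the enzymes of upper glycolysis (PFKL, PFKM and ALDOA) and TPI1 did not pass in C1 alone. Of 40 members 29 were lower, where 19.8% of all genes tested were, and 0 were higher by limma, edgeR or DESeq2, with 0 higher at an unadjusted p under 0.05, where 19.3% of all genes were higher. By edgeR 29 were lower and by DESeq2 26. CA9 and PFKFB4 were lower by at least 2-fold (1.66% of all genes), and 0 members were higher by that much (1.84%). The members' median change was -0.22, and that of all genes -0.0037.

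CA9 had 32.3 and 18.9 normalized counts in sgSTING C1 and 21.6 and 15.4 in sgSTING C2 libraries of SUM159PT, against 204 and 149.7 in mock libraries. This was the largest decrease among the members (-2.98 ± 0.21, limma adjusted p = 9.35e-16). PFKFB4 had 37.01 and 51.4 in C1 and 42.2 and 42.2 in C2, against 126 and 122 in mock, so the sgSTING libraries were all below 60 and the mock libraries above 120 (-1.51 ± 0.16, limma adjusted p = 3.92e-10). SLC2A3 had 368 and 339.6 in C1 and 315 and 332 in C2, against 654 and 648 in mock (-0.94 ± 0.07, limma adjusted p = 1.05e-15). The other decreases ran through the pathway. ALDOC changed by -0.79 ± 0.10, EGLN3 by -0.77 ± 0.07, CA12 by -0.72 ± 0.05, SLC16A3 by -0.69 ± 0.06, VEGFA by -0.66 ± 0.05, ENO2 by -0.65 ± 0.09 and HK2 by -0.63 ± 0.05.

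HK2, the inducible hexokinase of the first step of the pathway, had 663 and 689 in C1 and 681 and 619.9 in C2 libraries of SUM159PT, against 1033 and 1025 in mock. VEGFA had 607 and 617 in C1 and 548 and 548 in C2, against 903 and 927 in mock. For both genes every sgSTING library lay below every mock library (limma adjusted p = 3.75e-13 for HK2, limma adjusted p = 1.77e-13 for VEGFA). GAPDH, PKM, GPI, PDK1, PDK3, ADM, ANGPTL4, ANKRD37, P4HA1, P4HA2 and HIF1A did not pass, with GAPDH at -0.03 ± 0.03 (limma adjusted p = 0.336) and HIF1A at 0.05 ± 0.03 (limma adjusted p = 0.27). Without mock replicate 2, GAPDH was called at -0.08 (0.004).

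C1 and C2 were also compared with each other. The direct difference C2 minus C1 was called for 14 of 40 members in SUM159PT, 2 higher and 12 lower in C2, where 19.9% of all genes differed. SLC16A3 was the member with the largest such difference (-0.53 ± 0.06, limma adjusted p = 1.05e-07), and PFKL (-0.26 ± 0.06) and PGAM1 (-0.22 ± 0.04) were lower in C2 too. PDK1 and HIF1A were higher in C2 than in C1, by 0.28 ± 0.10 (limma adjusted p = 0.0349) and 0.16 ± 0.04 (limma adjusted p = 0.00202). Against mock, C1 alone gave 0 higher and 25 lower members (12.1% and 10.9% of all genes) and C2 alone 1 higher and 30 lower (21.6% and 22.7%). With C1 alone PFKL was at 0.01 (limma adjusted p = 0.928), PFKM at -0.14 (0.071), ALDOA at -0.08 (0.081) and TPI1 at -0.05 (0.365), so 4 of 8 enzymes of upper and 4 of 7 of lower glycolysis were lower there. KDM3A did not pass with C2 alone (-0.17, limma adjusted p = 0.172). GAPDH and PKM, not called on the mean of C1 and C2, were lower with C2 alone (-0.11 and -0.11, limma adjusted p of 0.0037 and 0.0053). With C1 alone GAPDH and PKM were at 0.04 and 0.05 (limma adjusted p of 0.379 and 0.253). HIF1A was the 1 higher member, at 0.13 in C2 and -0.03 in C1. In MDA-MB-436, C1 alone gave 9 higher and 13 lower members (18.8% and 16.5% of all genes) and C2 alone 7 and 17 (24.2% and 22.9%). With C1 alone PGAM1 (-0.06, limma adjusted p = 0.33), ALDOC (-0.23, 0.134), PFKFB4 (-0.22, 0.158) and PFKM (-0.08, 0.311) did not pass, so 6 of 7 enzymes of lower glycolysis did. With C2 alone ADM (0.30, limma adjusted p = 0.064), EPAS1 (0.08, 0.209) and PFKP (0.04, 0.407) did not pass. HIF1A was called higher in MDA-MB-436 with C2 alone (0.13, limma adjusted p = 0.008) and not with C1 alone (0.03, 0.562). The difference C2 minus C1 was called there for 2 members, where 0.797% of all genes differed. These were SLC16A3 (-0.31 ± 0.05, limma adjusted p = 0.00448) and ALDOA, the main aldolase of glycolysis (-0.15 ± 0.03, limma adjusted p = 0.0304). Whether C1 and C2 are different guides or clones is not given in the labels.

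PTPRC moved with the sgRNA contrasts as well. In SUM159PT it had 2.85 and 3.14 in C1 and 4.11 and 0 in C2 libraries, against 92.5 and 115 in mock libraries. The summed leukocyte markers PTPRC, CD68 and LYZ were at 8.24 to 14.2 in sgSTING and 108 to 128 in mock libraries of SUM159PT, with LYZ at 0 in both mock libraries. In MDA-MB-436 the sum of PTPRC and CD68 was 1221 to 1316 in sgSTING and 1022 to 1036 in mock libraries. Epithelial markers summed to 10243 to 11517 in sgSTING and 9548 to 9980.0 in mock libraries of SUM159PT, and to 5532 to 5848 in sgSTING and 6434 to 6459 in mock libraries of MDA-MB-436. The mesenchymal markers were at 15337 to 15869.9 in sgSTING and 14469 to 14907 in mock libraries of SUM159PT, and at 25585 to 26803 in sgSTING and 21714 to 21773 in mock libraries of MDA-MB-436. PECAM1 and CDH5 summed to 8.39 to 15.4 in sgSTING and 20.98 to 22.1 in mock libraries of SUM159PT. In MDA-MB-436 PECAM1, the 1 endothelial marker analysed, was at 89.2 to 128 in sgSTING and 67.4 to 74.2 in mock libraries, and PDGFRB, the 1 fibroblast and pericyte marker analysed, at 11.3 to 18.8 in sgSTING and 30.3 to 35.1 in mock libraries. The part of these markers in the members' changes was not tested.

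The fourth experiment asked what a STING ORF did, compared with a GFP ORF, in cells with the STING sgRNA. In SUM159PT, the STING ORF came with higher transcripts of CA9, CA12, PDK1, PDK3, SLC2A1, SLC2A3 and 3 of 4 stress and mitophagy genes. Of 40 members 23 were higher and 2 lower, where 13.2% and 12.8% of all genes tested were. Members had a median change of 0.34, and all genes one of 0.0094. Increases of at least 2-fold were called for 7 members, where 1.37% of all genes had one, and decreases of that size for 0 (1.87%).

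CA9 had 1034 and 944 normalized counts in STING ORF libraries of SUM159PT, against 66.3 and 55.6 in GFP ORF libraries. This was the largest change of any member in the series (4.00 ± 0.12, limma adjusted p = 7.03e-20). ADM had 151 and 146 in STING ORF and 49.7 and 57.5 in GFP ORF libraries, which did not overlap (1.46 ± 0.16, limma adjusted p = 1.8e-07). ENO2, the neuron-type enolase, had 532 and 498 in STING ORF and 223 and 199 in GFP ORF libraries (1.28 ± 0.11, limma adjusted p = 1.04e-09). BNIP3 had 1747 and 1759.8 in STING ORF and 748 and 771 in GFP ORF libraries, and the STING ORF libraries were both far higher (1.21 ± 0.08, limma adjusted p = 2.94e-12). ALDOC had 268 and 298 in STING ORF and 131 and 114 in GFP ORF libraries (1.20 ± 0.13, limma adjusted p = 1e-07). PDK1 had 504 and 616 in STING ORF and 229 and 282 in GFP ORF libraries, and the STING ORF libraries were again the higher (1.13 ± 0.12, limma adjusted p = 4.46e-08). NDRG1 rose by 1.06 ± 0.11, which makes 7 members past 2-fold.

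Smaller increases in SUM159PT with the STING ORF reached EGLN3 (0.64 ± 0.09), P4HA1 (0.63 ± 0.10), PGK1 (0.52 ± 0.05), PGAM1 (0.40 ± 0.06), SLC2A3 (0.45 ± 0.10), SLC2A1 (0.36 ± 0.08), HK2 (0.32 ± 0.08) and LDHA (0.29 ± 0.05). The adjusted p of SLC2A3, SLC2A1 and HK2 was 0.0504, 0.052 and 0.103 without GFP replicate 1, and 0.101, 0.12 and 0.25 without GFP replicate 2. EPAS1 and PFKL were the 2 decreases. EPAS1 had 1503 and 1438 in STING ORF and 1915 and 1908 in GFP ORF libraries (-0.38 ± 0.07, limma adjusted p = 0.000268), and its adjusted p was 0.053 without GFP replicate 1. PFKL was at -0.26 ± 0.08 (limma adjusted p = 0.0161), but the adjusted p was 0.23 without GFP replicate 1 and 0.26 without GFP replicate 2. GAPDH gave 0.01 ± 0.04 (limma adjusted p = 0.89) and SLC16A3 -0.04 ± 0.10 (limma adjusted p = 0.825), which was called at -0.22 without STING replicate 1 (0.029). HIF1A had 4261 and 4640.5 in STING ORF and 3981 and 4164 in GFP ORF libraries and did not pass (0.13 ± 0.06, limma adjusted p = 0.123), while without STING replicate 1 it was called at 0.19 (0.001). Without GFP replicate 1 or GFP replicate 2, 15 members in place of 23 were higher. The mesenchymal markers VIM and CD44 summed to 11351 to 11830.4 in STING ORF and 14085 to 14180.5 in GFP ORF libraries. PTPRC was at 5.99 and 3.20 in STING ORF and 0.872 and 0.943 in GFP ORF libraries. It rested on few reads, since 1 read was worth 0.872 to 1.07 in these libraries. The 3 leukocyte markers analysed, PTPRC included, overlapped in sum, at 7.47 to 14.97 in STING ORF and 12.2 to 14.1 in GFP ORF libraries. The epithelial markers (EPCAM, KRT8, KRT18) summed to 9309 to 9840.0 in STING ORF and 11043 to 11301 in GFP ORF libraries. The fibroblast and pericyte markers were at 52.3 to 55.9 in STING ORF and 59.3 to 59.4 in GFP ORF libraries, and PECAM1 at 8.53 to 9.98 in STING ORF and 10.4 to 12.2 in GFP ORF libraries. The part of these markers in the members' changes was not tested.

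**Figure D3:**
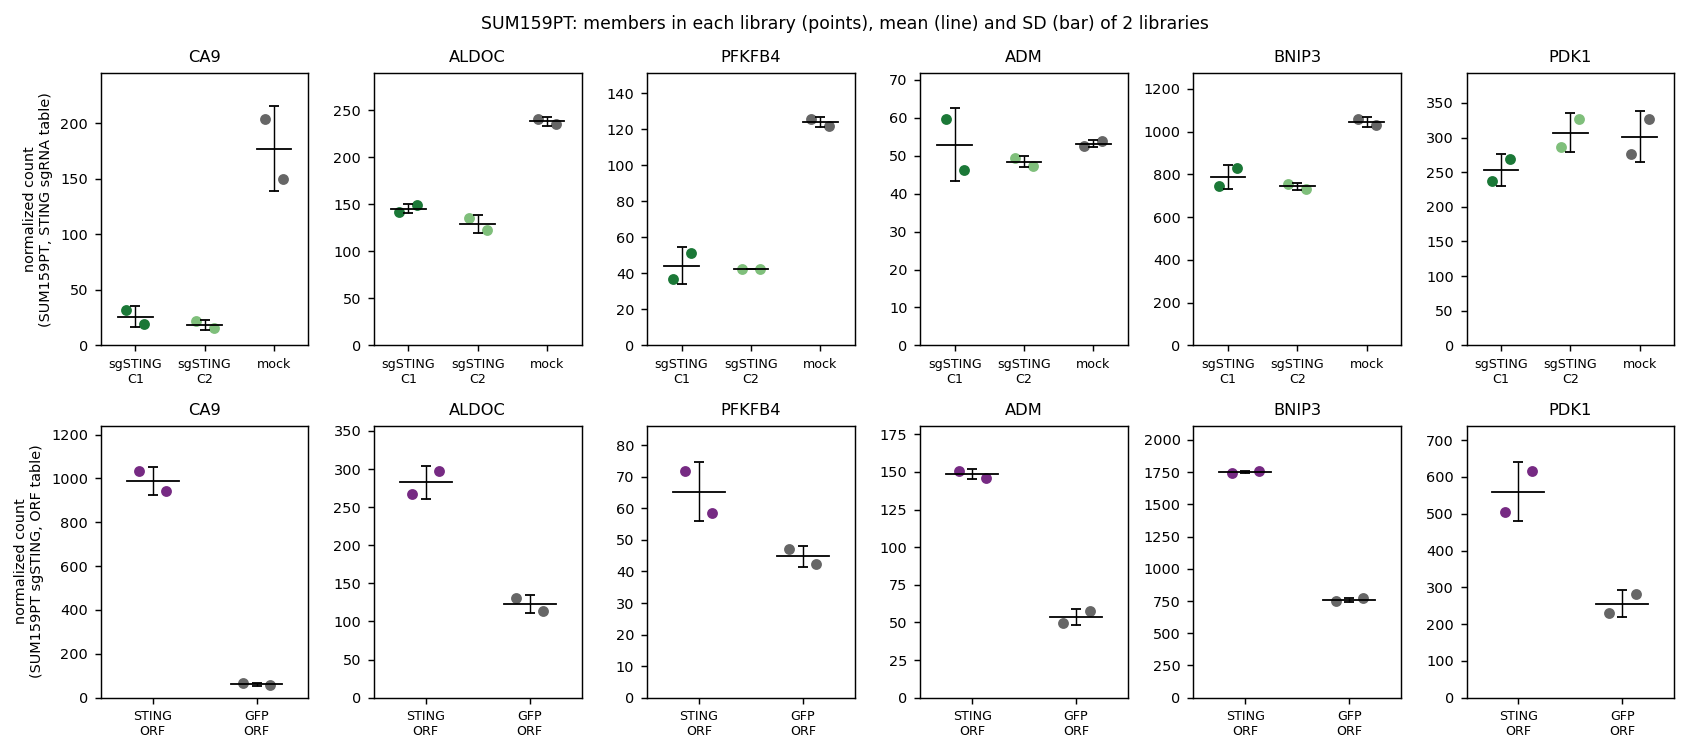
Normalized counts per library (points) with group means (lines) and SD (bars, n = 2 each) of CA9, ALDOC, PFKFB4, ADM, BNIP3 and PDK1 in SUM159PT, for sgSTING C1, sgSTING C2 and mock, and for STING ORF and GFP ORF, which come from a separately normalized table. CA9 is below 40 in the 4 sgSTING libraries, above 140 in both mock libraries, above 900 in both STING ORF libraries and below 70 in both GFP ORF libraries.

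In MDA-MB-436, the STING ORF gave smaller and mixed changes, with several enzymes of glycolysis slightly lower and ADM and CA9 higher. Of 40 members 5 were higher and 14 lower, where 9.2% and 11.9% of all genes tested were. Members had a median change of -0.09, and all genes one of -0.0088. No member changed by 2-fold, where 1.3% of all genes were higher and 0.781% lower by that much. ADM had 205 and 187 normalized counts in STING ORF and 144 and 118 in GFP ORF libraries, higher without overlap (0.58 ± 0.14, limma adjusted p = 0.00249). CA9 had 188 and 171 in STING ORF and 117 and 129.7 in GFP ORF libraries (0.54 ± 0.14, limma adjusted p = 0.00464), and missed the threshold without STING replicate 1 (0.066). Its increase here was a small one beside that in SUM159PT, although the difference between the lines was not tested.

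EGLN3 had 101 and 107 in STING ORF and 173 and 151 in GFP ORF libraries of MDA-MB-436, a decrease without overlap (-0.64 ± 0.15, limma adjusted p = 0.00182). SLC16A3 had 1606 and 1373 in STING ORF and 2449.8 and 2003 in GFP ORF libraries (-0.58 ± 0.08, limma adjusted p = 5.38e-06), and SLC2A3 1048 and 1011 in STING ORF and 1399 and 1452 in GFP ORF libraries (-0.47 ± 0.08, limma adjusted p = 2.92e-05). All 3 genes stood lower in both STING ORF libraries. PFKL was lower at -0.38 ± 0.09, and ALDOA and ENO1 were called at -0.29 and -0.27, which without STING replicate 2 were -0.21 and -0.25 with adjusted p of 0.248 and 0.192. ENO1 also missed the threshold without STING replicate 1 (0.073).

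The calls in this table rested on few libraries. PFKFB4, ENO2 and HIF1A were called higher at 0.46, 0.23 and 0.19, and without STING replicate 1 their adjusted p was 0.315, 0.193 and 0.189. Without GFP replicate 1 it was 0.124, 0.052 and 0.258. ENO2 also missed without GFP replicate 2 (0.114) and, like HIF1A (0.393), without STING replicate 2 (0.214). Without GFP replicate 1, 2 members were higher. Without STING replicate 1, 1 was higher and 5 lower, and without STING replicate 2, 3 were higher and 4 lower. DESeq2 called 0 higher and 6 lower. PTPRC was at 433 and 476 in STING ORF and 564 and 646 in GFP ORF libraries, the summed leukocyte markers PTPRC, CD68 and LYZ were at 434 to 481 in STING ORF and 568 to 649.5 in GFP ORF libraries. The 4 epithelial markers summed to 4619 to 4809 in STING ORF and 6126 to 6996 in GFP ORF libraries, the endothelial markers to 52.5 to 55.9 in STING ORF and 36.7 to 42.9 in GFP ORF libraries, and the fibroblast and pericyte markers to 16.5 to 23.5 in STING ORF and 8.58 to 9.18 in GFP ORF libraries. Their part in the changes was not tested.

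The fifth experiment asked what doxycycline did in Py230 cells with a Sting1 shRNA. Doxycycline came with lower Slc2a1, Hk1, Hk2, Slc16a3, Vegfa and both carbonic anhydrases, and with higher Epas1, Egln1, Bnip3, Bnip3l and 5 of 7 enzymes of lower glycolysis. Of 36 members tested, 16 were higher and 13 lower, beside 32.8% and 35.1% of all genes tested. The median over the 36 members was 0.10, against -0.012 over all genes. Changes of at least 2-fold were called for 4 members higher, Epas1, Bnip3, Angptl4 and Adm (6.48% of all genes), and 3 lower, Hk2, Slc16a3 and Eno2 (7.84%).

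Hk2 had 189, 182 and 206 normalized counts in doxycycline libraries of Py230, against 550.1, 760.3 and 697 in vehicle libraries. No doxycycline library came near the vehicle range (-1.78 ± 0.09, limma adjusted p = 6.82e-15). Car12 had 42.6, 40.9 and 39.3 with doxycycline and 65.0, 78.8 and 92.7 with vehicle, lower in all 3 libraries (-0.92 ± 0.16, limma adjusted p = 2.46e-05). Pdk3 had 172, 182 and 169 with doxycycline and 351, 274 and 317 with vehicle (-0.84 ± 0.09, limma adjusted p = 1.28e-08). Slc2a1, which supplies glucose to the hexokinase step, had 205, 202 and 203 with doxycycline and 324, 369 and 335 with vehicle (-0.75 ± 0.08, limma adjusted p = 7.08e-09). Every one of these genes was lower without overlap. Car9 changed by -0.64 ± 0.07, Vegfa by -0.56 ± 0.06, the low transcripts Slc16a3 and Eno2 by -1.34 ± 0.32 and -1.14 ± 0.31 and Gapdh by -0.20 ± 0.04.

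Epas1 had 398, 409 and 399 with doxycycline and 157, 141 and 115 with vehicle in Py230. It was the largest increase of any member tested in this line (1.55 ± 0.10, limma adjusted p = 3.19e-13). Bnip3 had 124, 106 and 131 with doxycycline and 39.4, 45.7 and 49.0 with vehicle, well above it in every library (1.41 ± 0.14, limma adjusted p = 4.71e-09). Pfkm had 361, 384 and 337 with doxycycline and 193, 193 and 159.9 with vehicle (0.98 ± 0.09, limma adjusted p = 3.58e-10). Egln1 rose by 0.83 ± 0.06 and Pkm, the pyruvate kinase that makes pyruvate in the last step, by 0.68 ± 0.04. The low transcripts Adm, at 18.8 to 21.8 with doxycycline and 4.48 to 17.1 with vehicle, and Angptl4, at 19.9 to 21.8 with doxycycline and 5.33 to 9.59 with vehicle, rose by 1.15 ± 0.35 and 1.37 ± 0.30. Tpi1 rose by 0.64 ± 0.05, Eno1 by 0.21 ± 0.04, Pgk1 by 0.22 ± 0.04 and Ldha by 0.16 ± 0.04. Hif1a did not pass (0.11 ± 0.06, limma adjusted p = 0.106).

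Several other transcripts moved with doxycycline. Myc had 1020.1, 964 and 998 with doxycycline and 2769.9, 3281 and 3274 with vehicle (-1.64 ± 0.05, limma adjusted p = 1.41e-18). The mesenchymal markers Vim and Cd44 summed to 4273 to 4535 with doxycycline and 2144 to 2402 with vehicle, and the 4 epithelial markers to 10484 to 10737 with doxycycline and 10952 to 11759 with vehicle, while Esr1 changed by -1.45 ± 0.12. The fibroblast and pericyte markers Pdgfrb and Dcn summed to 62.1 to 74.8 with doxycycline and 171 to 202 with vehicle. The part of these changes, and of doxycycline itself, in the members' values was not tested, and no group without the shRNA was analysed here.

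**Figure D4:**
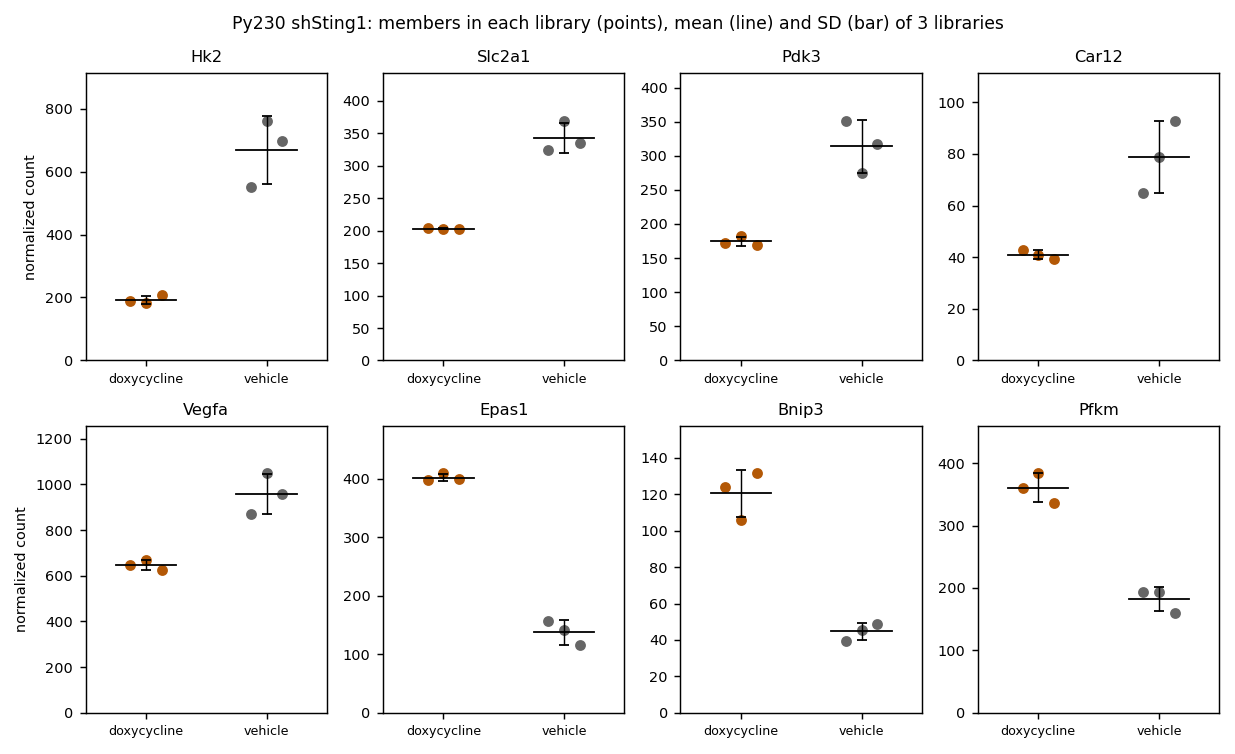
Normalized counts per library (points) with group means (lines) and SD (bars, n = 3 each) of 8 members in Py230 cells with a Sting1 shRNA, with doxycycline on the left and vehicle on the right of each pair. Hk2, Slc2a1, Pdk3, Car12 and Vegfa lie lower with doxycycline and Epas1, Bnip3 and Pfkm higher, without overlap between the groups.

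Further genes of the pathway were counted in the same fits. Of the other hypoxia-responsive genes, 16 of 29 tested were higher and 1 lower with the STING ORF in SUM159PT (13.2% and 12.8% of all genes), led by STC2, a secreted glycoprotein hormone (1.05), FAM162A (0.99) and the collagen lysyl hydroxylase PLOD2 (0.86). With the STING sgRNA in the same line, 3 of 29 were higher and 17 lower (19.3% and 19.8% of all genes), among them the matrix cross-linking enzymes LOX, which rose (1.09), and LOXL2, which fell (-0.87). In Tax-R cells of MDA-MB-436 with MYC siRNA, 16 of 27 were higher and 5 lower (34% and 33.7% of all genes), led by the transcriptional repressor BHLHE40 (1.64), the mTORC1 inhibitor DDIT4 (1.60) and LOXL2 (1.55). In SUM159PT Tax-R with MYC siRNA, 7 of 27 were higher and 14 lower (35% and 34.5% of all genes), with STC2 at 1.24. In Tax-R cells, 13 of 29 were higher and 10 lower in MDA-MB-436 (27.7% and 26.9% of all genes), and 6 of 29 were higher and 12 lower in SUM159PT (23.5% and 22.1% of all genes). LOX fell in Tax-R cells of both lines, at -3.15 in MDA-MB-436 and -3.97 in SUM159PT. In the remaining comparisons the counts were 9 higher and 5 lower of 25 in 4T1 (24.7% and 21.5% of all genes), 8 and 10 of 28 with the STING sgRNA in MDA-MB-436 (24.8% and 23% of all genes), 7 and 3 of 28 with the STING ORF in MDA-MB-436 (9.2% and 11.9% of all genes), and 9 and 15 of 28 in Py230 (32.8% and 35.1% of all genes), where Stc2 and Ddit4 fell, at -2.74 and -1.35.

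The other glycolysis and pyruvate genes split in both directions in every comparison. They ran from 2 higher and 3 lower of 18 with the STING ORF in SUM159PT (13.2% and 12.8% of all genes) to 7 higher and 7 lower of 18 in Py230 (32.8% and 35.1% of all genes). PDK4, a pyruvate dehydrogenase kinase linked to fasting, had the largest change with MYC siRNA in SUM159PT Tax-R (-2.14), where GPD2, the mitochondrial glycerol-3-phosphate dehydrogenase, was lower as well (-1.60). In MDA-MB-436 Tax-R with MYC siRNA, PGM2 and GPD2 were lower (-1.30 and -1.11) and SLC2A6 was higher (1.22). Pgm1, which links glycogen to glycolysis, was lower in Py230 with doxycycline (-1.65). PFKFB2 and PDK2 were lower in Tax-R cells of SUM159PT (-0.78 and -0.74), where PFKFB3 was higher. Among the HIF pathway regulators, 6 of 10 were higher in 4T1 with MYC siRNA (24.7% of all genes), and 5 of 11 were lower in Tax-R cells of SUM159PT (22.1% of all genes). VHL and CITED2, a competitor of HIF for its coactivators, were lower in Tax-R cells of both lines, with CITED2 at -0.27 in SUM159PT. In MDA-MB-436 it was at -0.32, and that call was lost without parental replicate 2 (-0.29, limma adjusted p = 0.069). With the STING ORF in SUM159PT, CITED2 was higher (0.67).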

How the data were processed

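Total RNA was extracted with the Maxwell RSC simplyRNA Cells kit, per the labels' protocols. Tools listed without versions, per the submitters' processing notes, are HISAT2, StringTie, featureCounts and DESeq2, and no source used here gives the genome build. The authors deposited 10 tables of normalized counts. Each value is a signal, the gene's read count divided by 1 size factor per library within its table, as found from the deposited values: all of them came out as whole reads within a tolerance of 0.05. Recovered depth was 5663610 to 13191675 reads per library, and the counting error of low genes follows from it.

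Each table was fitted on its own with limma 3.58.1 (trend, R 4.3.3) on log2(value + 1), over genes whose table mean was 10 or more, and p-values were adjusted by Benjamini and Hochberg over all genes tested. A gene was called at an adjusted p below 0.05. For MYC siRNA and STING sgRNA, the mean of the 2 reagents was set against the control. Alternatives were edgeR 4.0.16 (quasi-likelihood) and DESeq2 1.42.0 on the recovered reads, a pseudocount of 4, no filter, quantile normalization, a 2-fold rule, a replicate block, each reagent alone and each library left out. Alternatives for the differences between reagents were chosen after seeing the data. The fits were tested on simulated data.

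The 40 members, the further gene lists and the markers were chosen with earlier results of these data known, so no list is independent evidence. Members named with values were, for each comparison, up to 6 called higher and 6 called lower with the largest changes among members whose table mean was 50 or more, plus HIF1A. Others are named outside this rule, to complete a role group or for the size of their change, some of them with a table mean under 50. Correlations of same-numbered deviations ran from -0.09 to 0.11, and no pairing was used in the main fits. In groups of 2 libraries the deviations mirror each other, so these values cannot settle whether replicate numbers pair libraries. Every column of the tables was mapped to a sample.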

Additional observations from a re-analysis of the deposited data

Results flagged for a closer look

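Some members moved in opposite directions in different lines under the same treatment, with every library of one line on one side and every library of another on the other side. None of these differences between lines was tested, since each line has its own table. The share of all genes that were opposite in the same way was not counted. The counts below are therefore not a result about the members as against other genes. In Tax-R cells this held for 8 of 19 members called in both MDA-MB-436 and SUM159PT: HK2, PFKFB3, PGK1, PDK1, CA9, NDRG1, BNIP3 and EGLN3. The log2 change of CA9 was 0.91 in MDA-MB-436 and -1.40 in SUM159PT, and that of PFKFB3, which makes the activator of phosphofructokinase, was -0.42 in MDA-MB-436 and 0.24 in SUM159PT. With MYC siRNA it held for 7 of 31 members called in both human lines: PGK1, LDHA, PDK1, NDRG1, BNIP3, BNIP3L and KDM3A. The call of BNIP3L in SUM159PT Tax-R was lost without siC replicate 2 or siMYC2 replicate 2. NDRG1 was at 0.54 in MDA-MB-436 Tax-R and -0.74 in SUM159PT Tax-R, BNIP3 at 0.41 and -0.39, and PDK1 at 0.30 and -0.43 in these lines.

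Between 4T1 and the human lines, MYC siRNA gave such opposite changes for 5 of 21 members called in both 4T1 and MDA-MB-436 Tax-R, and 8 of 18 for SUM159PT Tax-R. The change of VEGFA was 1.81 in MDA-MB-436 Tax-R and 1.39 in SUM159PT Tax-R, and that of Vegfa was -0.60 in 4T1. P4HA2 changed by -0.61 in SUM159PT Tax-R, and P4ha2 by 0.75 in 4T1. With STING sgRNA, HK1, PFKP, VEGFA, NDRG1 and EPAS1 were opposite, 5 of 19 members called in both lines. In MDA-MB-436 the calls of HK1, NDRG1 and EPAS1 were lost without mock replicate 1, and those of PFKP and EPAS1 with C2 alone. With the STING ORF, 7 of 12 were opposite, SLC2A1, SLC2A3, HK2, ALDOA, TPI1, PGAM1 and EGLN3, each lower in MDA-MB-436 and higher in SUM159PT. Among them EGLN3 was at -0.64 in MDA-MB-436 and 0.64 in SUM159PT, and SLC2A3 at -0.47 in MDA-MB-436 and 0.45 in SUM159PT, where its call was lost without either GFP library (limma adjusted p of 0.0504 and 0.101). The calls of SLC2A1 and HK2 in SUM159PT were lost in the same way, and that of ALDOA in MDA-MB-436 without STING replicate 2. Members lower with the STING ORF in MDA-MB-436 numbered 14 in the main fit and 6 by DESeq2. They were fewer still without STING replicate 1, without STING replicate 2 or without a filter. The 7 calls in MDA-MB-436 therefore did not all hold under any of these settings.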

How the results depend on the processing

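Of 200 named values, a pseudocount of 4 kept the direction and the side of the threshold of all 200, and edgeR of 198, with 1 gained. DESeq2 kept 179 and lost 21, no filter kept 177 and lost 23, and quantile normalization kept 184, lost 6 and gained 4. Quantile normalization reversed 6: PKM (-0.30) and CA9 (-0.0058) with MYC siRNA in SUM159PT Tax-R, and GAPDH in MDA-MB-436 Tax-R cells (-0.0097) and in those given MYC siRNA (-0.0043), and in SUM159PT with STING sgRNA (0.061) and with the STING ORF (-0.036), where edgeR gave GAPDH -0.0037. By the 2-fold rule the members higher were 0, 0, 10, 3 and 1 in the comparisons for Tax-R in MDA-MB-436 and SUM159PT and for MYC siRNA in Tax-R cells of MDA-MB-436 and SUM159PT and in 4T1, and 0, 0, 0, 7 and 4 for STING sgRNA in MDA-MB-436 and SUM159PT, the STING ORF in the same lines and Py230. The members lower were 2, 2, 0, 0 and 0, and then 1, 2, 0, 0 and 3. DESeq2 gave 13 and 2 higher in Tax-R cells of MDA-MB-436 and SUM159PT, 3 higher with STING sgRNA in MDA-MB-436, 0 higher and 6 lower with the STING ORF in MDA-MB-436 and 1 lower in SUM159PT. Without a filter, 5 were higher with STING sgRNA in MDA-MB-436, 0 were higher and 1 lower with the STING ORF in MDA-MB-436, and 14 higher and 1 lower in SUM159PT. With quantile normalization, 5 were higher and 1 was higher with STING sgRNA in MDA-MB-436 and SUM159PT, and 7 lower with the STING ORF in MDA-MB-436. Shares of all genes under these settings are not given here, so such shifts may not be particular to the members. The cause was not tested. Leaving out 1 library gave 12 to 20 higher and 8 to 9 lower in MDA-MB-436 Tax-R, 4 to 6 and 17 to 19 in SUM159PT Tax-R, 28 to 30 and 6 to 8, 16 to 19 and 15 to 17, and 18 to 27 and 3 to 4 with MYC siRNA in the Tax-R cells of these lines and in 4T1, 2 to 9 and 13 to 18 with STING sgRNA in MDA-MB-436, 0 to 0 and 27 to 29 in SUM159PT, 1 to 4 and 4 to 15 with the STING ORF in MDA-MB-436, 15 to 30 and 0 to 3 in SUM159PT, and 16 to 16 and 12 to 13 in Py230. Of single values, 1018 stayed, 56 lost and 10 gained a call and 5 reversed when 1 library was left out. Those 5 were uncalled values: CA9 with MYC siRNA in SUM159PT Tax-R (-0.013 to 0.14), GAPDH with STING sgRNA (-0.077 to 0.0097) and with the STING ORF (-0.0010 to 0.022) in SUM159PT, and SLC16A3 with the STING ORF there (-0.22 to 0.14). HIF1A (-0.034) and GAPDH (0.041) reversed with sgSTING C1 alone in SUM159PT and ANGPTL4 (-0.024) with siMYC2 alone in SUM159PT Tax-R, and sgSTING C2 alone gave 1 higher member there. With the replicate number as a block, 7 were higher and 18 lower with the STING ORF in MDA-MB-436, 30 and 2 in SUM159PT and 21 and 4 in 4T1. The block changed 1 of 200 named values, that of HIF1A with the STING ORF in SUM159PT, which was called. In MDA-MB-436 the pair of Tax-R libraries had a chi-square per gene of 0.85 over 18264 genes. Counted as 1 library, they kept 17 of 19 named values, with the calls of HIF1A (limma adjusted p = 0.086) and ENO2 (0.106) lost.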
